A study of Mus musculus with 5 samples.

Results

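The genes described here make cholesterol and fatty acids. They were chosen by symbol from a list of 30 genes, and all 30 were found among the 42454 features of the count tables, of which 25245 had at least 1 count in the retained cells. The list holds 17 genes of sterol synthesis and its control (Srebf2, Insig1, Hmgcs1, Sqle, Lss, Fdft1, Fdps, Idi1, Mvd, Mvk, Cyp51, Dhcr7, Sc5d, Msmo1, Nsdhl, Hsd17b7 and Stard4) and 13 genes of fatty acid synthesis, remodelling and its control (Srebf1, Acaca, Acacb, Fasn, Acly, Elovl1, Elovl6, Scd1, Scd2, Me1, Fads1, Fads2 and Lpcat1). Each member had at least 1 count in every library. The list was chosen with earlier results of these data known, so its shares of called genes are a description only. The 2 sets are described apart.

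Cells of whole mouse lung (C57BL/6J) were profiled by droplet single-cell RNA sequencing in 5 libraries, 1 per group. Newborn mice were kept with their dams in room air or in hyperoxia (>95% O2) for 3 days and then recovered in room air. The groups were air at postnatal day (pnd) 7, hyperoxia at pnd7, hyperoxia at pnd7 after sorting of cells positive for C12FDG (a substrate that fluoresces when beta-galactosidase cuts it, used to mark senescent cells; suspensions of 3 mice were pooled), air at pnd60 and hyperoxia at pnd60. The unsorted libraries were made for an earlier study by the same group, and no group had a second library. Thus a difference between groups cannot be told apart from a difference between 2 libraries, no test of a condition was possible, and every interval given covers counting error only.

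Type II alveolar epithelial cells make surfactant, a film of phospholipid, cholesterol and a few proteins that keeps air spaces open. They make much of its lipid themselves. In the sterol branch, Hmgcs1 starts the mevalonate pathway, Mvk, Mvd, Idi1, Fdps and Fdft1 carry it to squalene, Sqle and Lss close the ring, and Cyp51, Msmo1, Nsdhl, Hsd17b7, Sc5d and Dhcr7 trim lanosterol to cholesterol. Srebf2 encodes the transcription factor that drives these genes when membranes are low in sterol, Insig1 encodes the protein that holds it back, and Stard4 carries sterol between membranes. In the fatty acid branch, Acly and Me1 supply acetyl-CoA and NADPH, Acaca and Acacb make malonyl-CoA, Fasn builds palmitate, Elovl1 and Elovl6 lengthen chains, and Scd1, Scd2, Fads1 and Fads2 put in double bonds. Srebf1 encodes the factor that drives much of this branch, and Lpcat1 puts palmitate into the disaturated phosphatidylcholine of surfactant.

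Promoter stretches are shown first, since the sterol set shared short motifs that the list did not use. RefSeq (GRCm38.p6) promoters, from 250 bases before to 50 after each start, were at hand for 13 of the 17 sterol genes and 10 of the 13 fatty acid genes. Both strands were searched. The CCAAT box (CCAAT, the site of the factor NF-Y) was found in at least 1 promoter of 13 of 13 sterol genes and 6 of 10 fatty acid genes, compared with 41.1% of 27025 genes (13 of 15 and 7 of 14 promoters, since some genes have several, against 37.4% of all promoters). The GC box (GGGCGG, the site of Sp factors) was found in 13 of 13 and 6 of 10 genes, compared with 38.2% of all genes. The E-box CACGTG was found in 4 sterol genes (Insig1, Dhcr7, Hsd17b7 and Sc5d) and 0 fatty acid genes, against 8.09% of genes. A sterol element (TCACNCCAC) was found in Hmgcs1 alone, against 1.44% of genes. These are letter matches, base composition was not matched, and binding was not measured. In the windows below the matched letters are in capitals, ATTGG is CCAAT on the other strand, and each window lies upstream of the annotated start.
Hmgcs1, sterol element, chr13:119690203-119690232, plus strand: acgtcaccgtcTCACCCCACttcccaggtc
Hmgcs1, CCAAT box, chr13:119690293-119690322, plus strand: gtccccgcctctcATTGGctgaaagcggat
Insig1, E-box, chr5:28071299-28071328, plus strand: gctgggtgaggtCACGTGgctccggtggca
Insig1, CCAAT box, chr5:28071183-28071212, plus strand: ccgccctcctcccATTGGctccggcggcct
Nsdhl, CCAAT box, chrX:72918488-72918517, plus strand: aaagactagcctcATTGGgcaaaatcatgc
Hsd17b7, CCAAT box, chr1:169969262-169969291, minus strand: atgccgagtcgcgATTGGcgggcctaacgc
Fasn, CCAAT box, chr11:120824590-120824619, minus strand: gcctcggtgtccaATTGGtttcgatgtgga
Elovl1, CCAAT box, chr4:118428045-118428074, plus strand: ctcggccagccgcCCAATcagcaggcgccc

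After the filter (more than 700 and fewer than 8000 genes, under 5% mitochondrial counts) the libraries held 493 to 4756 cells and 7880365 to 16648251 counts. The mitochondrial share was counted only from genes with symbols that begin with mt-R. Depth per cell differed with age and sort: the median was 3915 and 7119.5 counts in the air and hyperoxia pnd7 libraries, 15529 in the sorted library, and 2168 and 2315.5 at pnd60. Pairs of libraries shared 0 to 4 barcodes. Cells were clustered without the members and related lipid genes, and classes were named only from marker genes. Levels are given as unique molecular identifier counts per 1000000 counts of a class (CPM), which were read from the 3′ end of transcripts and so do not grow with gene length. Scd1 (chr19:44394455-44407879, minus strand, GRCm38) and Scd2 (chr19:44293674-44306864, plus strand) are paralogs, and reads from stretches they share could have been split or lost in counting.

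The type II-like class held 171 and 130 cells at pnd7 (air and hyperoxia) and 447 and 532 cells at pnd60, with 8 cells in the sorted library, which were too few to be compared. All 10 type II markers were detected in each library, and Sftpc, the surfactant protein C gene that defines these cells, stood at 211619, 220914, 139853 and 138654 CPM in the same order. Cells of the 2 ages fell in different clusters. The pnd7 cluster was led by Bex2, Lyz1 and Bex4, and the pnd60 clusters by Scd1 and Lrg1 and by Sprr1a. Club cell markers summed to 49.1 and 41.1 CPM in type II-like cells at pnd7 and to 1353 and 1510 CPM at pnd60, and macrophage markers to 8.6 to 86.1 CPM; the part of these in the results below was not tested. A cluster led by cycling genes, with 8 of the 10 type II markers raised, was left unnamed and held 27 and 136 pnd7 cells.

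Type II-like cells carried more of both sets than the other cells of the same library, by a wider margin for the fatty acid members. The summed sterol level was 826 CPM (95% interval 791 to 862) in air at pnd7, 910 (869 to 952) after hyperoxia at pnd7, 2122 (2069 to 2176) in air at pnd60 and 2203 (2152 to 2254) after hyperoxia at pnd60. All other cells together held 430, 506, 560 and 535 CPM. The summed fatty acid level in type II-like cells was 5431, 5677, 16138 and 17828 CPM in the same order, against 965, 1088, 906 and 930 CPM in the other cells. Thus the fatty acid sum was 5.63, 5.22, 17.8 and 19.2 times that of other cells, and the sterol sum 1.92, 1.80, 3.79 and 4.12 times. The other cells were a different mix at each age, so these ratios are not alike between ages. In air they held 686 erythroid-like and 119 B-like cells at pnd7, and 14 and 1269 at pnd60. The other cells themselves carried Sftpc, at 16731 and 25153 CPM at pnd7 but 1222 CPM in air at pnd60, and its part in these ratios was not tested. They also took in the unnamed cells, 149 after hyperoxia at pnd7, most of them from the cycling cluster with type II markers raised. These 149 cells stood at 1026 CPM for Lpcat1, 854 for Scd1 and 413 for Fasn. Their part in the ratios of 5.22 and 1.80 was not tested.

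**Figure D1:**
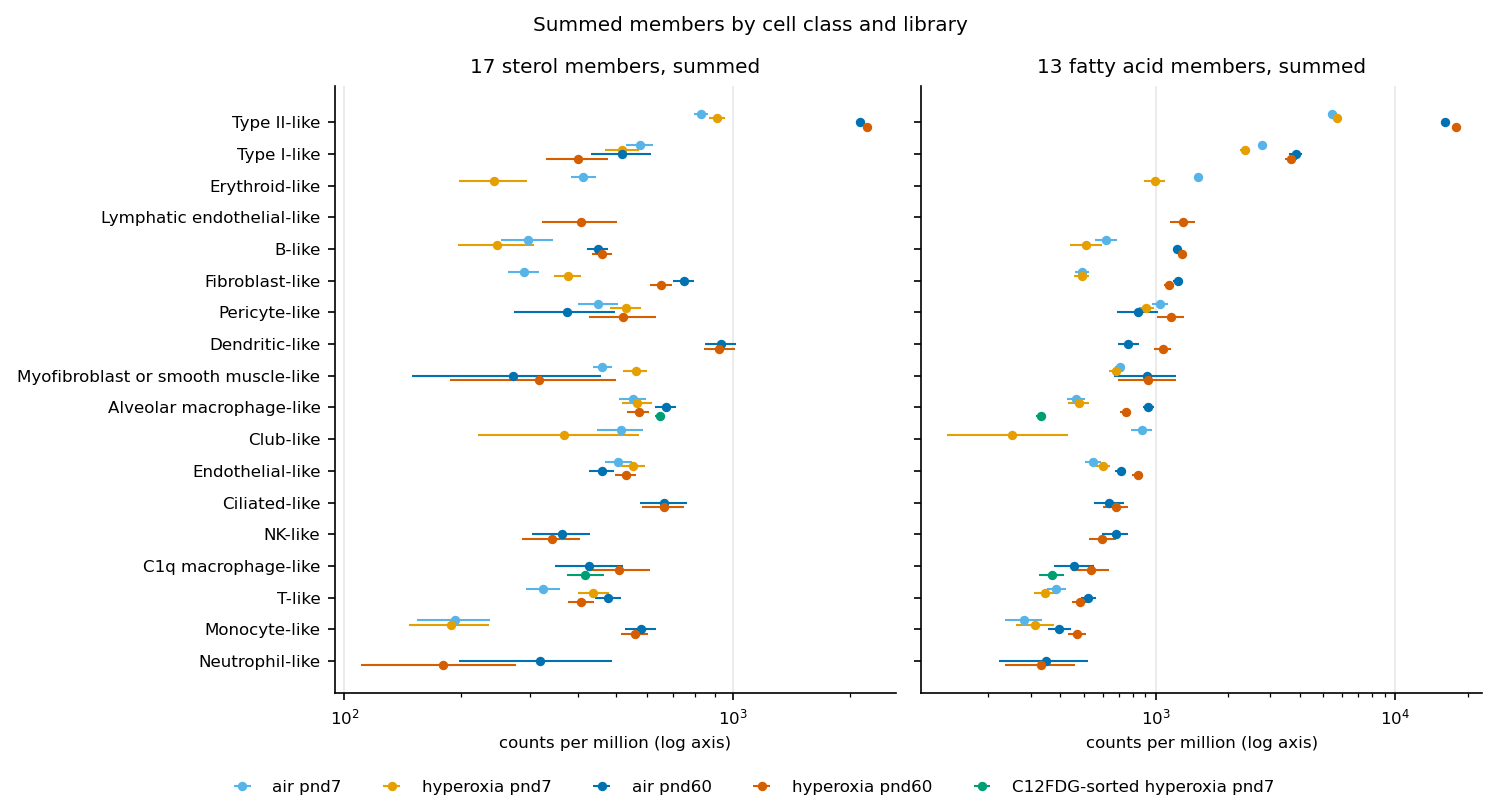
Summed CPM of the sterol members and of the fatty acid members by cell class and library, on log axes, each point 1 library of 1 class. Type II-like cells stand highest for both sets at pnd60, at 2122 and 2203 CPM for sterol members and 16138 and 17828 CPM for fatty acid members.

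A gene was called higher or lower when its CPM differed at least 1.5-fold and it had at least 100 counts in both groups together. This is a rule of size and not a test. In the air pnd7 library, 11 of 17 sterol members and 10 of 12 fatty acid members with enough counts were called higher in type II-like than in other cells, compared with 11.0% of all genes. After hyperoxia at pnd7 the counts were 11 of 17 and 10 of 12 against 10.2%. In air at pnd60 they were 17 of 17 and 11 of 12 against 14.2%, and after hyperoxia at pnd60 17 of 17 and 11 of 13 against 14.1%. Type II-like cells had the highest level of any class with at least 20 cells for 8, 7, 10 and 12 of the 17 sterol genes and for 9 of the 13 fatty acid genes in each of the 4 libraries.

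The fatty acid level rested on a few genes. Scd1, the main stearoyl-CoA desaturase, stood at 1060 CPM in air at pnd7, 1292 after hyperoxia at pnd7, 7981 in air at pnd60 and 9344 after hyperoxia at pnd60. Lpcat1 stood at 2056, 1925, 2618 and 2556 CPM, Elovl1 at 431, 533, 1895 and 2039, and Fasn at 505, 594, 1230 and 1304. Without Scd1 the summed level was 4371, 4385, 8157 and 8483 CPM. Elovl6 was the exception: it had 0 counts in type II-like cells of 3 libraries and 3 counts after hyperoxia at pnd60, whereas the other cells held 8.71 to 15.3 CPM. With the limit set at 3 counts, a count of 0 allows up to 1.19 CPM in the air pnd7 library, 1.43 after hyperoxia at pnd7 and 1.04 in air at pnd60. Acacb was low, with 2 and 1 counts at pnd7 and 30 and 29 at pnd60 (10.4 and 8.88 CPM).

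**Figure D2:**
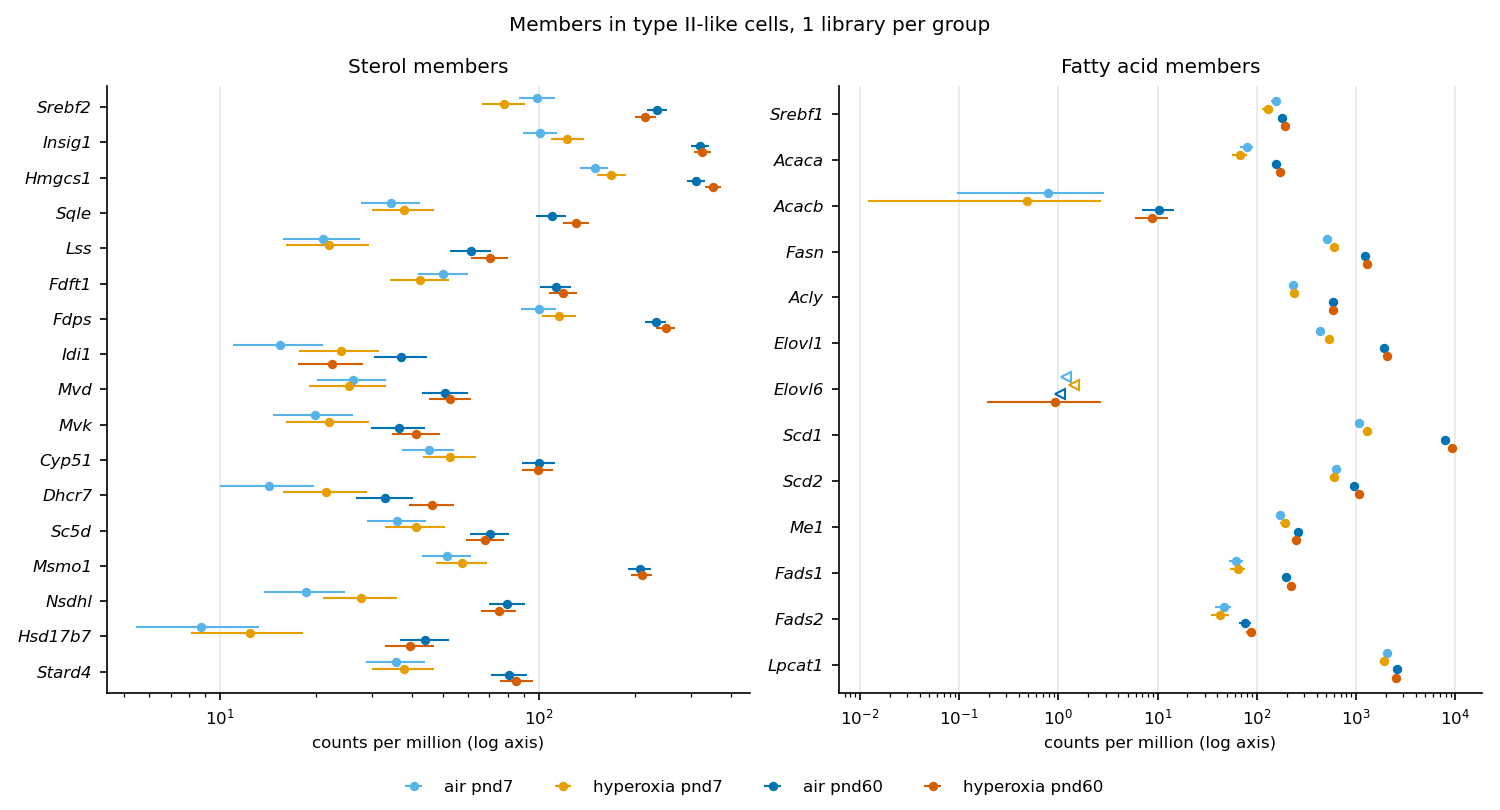
CPM of each member in type II-like cells of the 4 unsorted libraries, on a log axis, with exact Poisson 95% intervals for counting error. The 2 pnd60 libraries lie above the 2 pnd7 libraries for most members, from 1060 and 1292 to 7981 and 9344 CPM for Scd1.

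Both sets were higher at pnd60 than at pnd7 in type II-like cells, in air and after hyperoxia alike. In air, 17 of 17 sterol members were called higher, compared with 26.9% of 6564 genes with enough counts. Their median log2 ratio was 1.22 (medians of the members' lower and upper bounds, 0.88 to 1.55), while the median of all genes was 0.26. After hyperoxia, 16 of 17 were called higher, compared with 33.3% of 6574 genes, and the median log2 ratio was 1.17 against 0.32 for all genes. The exception was Idi1, at 23.9 and 22.4 CPM. Of the 11 fatty acid members with enough counts, 9 were called higher in each exposure, with median log2 ratios of 1.0 (0.75 to 1.24) in air and 1.14 (1.04 to 1.39) after hyperoxia.

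Within the sterol set, 3 of the 6 enzymes after lanosterol had the largest ratios in air. Hsd17b7, a sterol keto-reductase, was at 8.7 CPM at pnd7 and 43.9 at pnd60 (log2 ratio 2.34, 1.67 to 3.06). Nsdhl, a dehydrogenase of the same demethylation step, was at 18.6 and 79.5 CPM (2.10, 1.64 to 2.58). Msmo1, the oxidase that opens this step, was at 51.4 and 208 CPM (2.01, 1.74 to 2.30). After hyperoxia the same 3 genes stood at 12.4 and 39.5, 27.7 and 75.0, and 57.3 and 210 CPM. Neither pair of libraries overlapped in its counting intervals for these genes.

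In air the regulators and the enzymes before lanosterol had smaller ratios than these 3 genes, an order that did not hold after hyperoxia, where Sqle, Lss, Fdft1 and Srebf2 lay above Nsdhl (1.44). Insig1 was at 101 and 123 CPM at pnd7 and 320 and 326 at pnd60 (log2 ratio 1.67 in air and 1.40 after hyperoxia). Srebf2 was at 98.5 and 77.9 CPM at pnd7 and 235 and 216 at pnd60 (1.25 and 1.47). Sqle, squalene epoxidase, was at 34.4 and 37.8 against 110 and 131 CPM (1.67 and 1.80). Hmgcs1 was at 150 and 169 against 311 and 351 CPM, with a log2 ratio of 1.05 in both exposures. The remaining sterol members had log2 ratios from 0.88 (Mvk) to 1.55 (Lss) in air.

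Fatty acid genes were less even. Scd1 had a log2 ratio of 2.91 (2.85 to 2.97) in air and 2.85 (2.80 to 2.91) after hyperoxia, and Elovl1, which lengthens saturated and monounsaturated chains, 2.14 (2.04 to 2.23) and 1.94 (1.84 to 2.03). Fads1, a desaturase of polyunsaturated chains, was at 61.7 and 64.5 CPM at pnd7 and 195 and 221 at pnd60. Acly had ratios of 1.33 and 1.29, Fasn 1.28 and 1.14, and Acaca 1.0 and 1.35. Scd2 stood at 635 and 601 against 957 and 1070 CPM (0.59 and 0.83). Lpcat1 was not called in either exposure (0.35 and 0.41), and Srebf1 stood at 155 and 178 CPM in air, a ratio of 0.20 (0.00 to 0.39), but at 129 and 194 CPM after hyperoxia, a ratio of 0.59. Me1 was called in air (0.60) and not after hyperoxia (0.38).

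**Figure D3:**
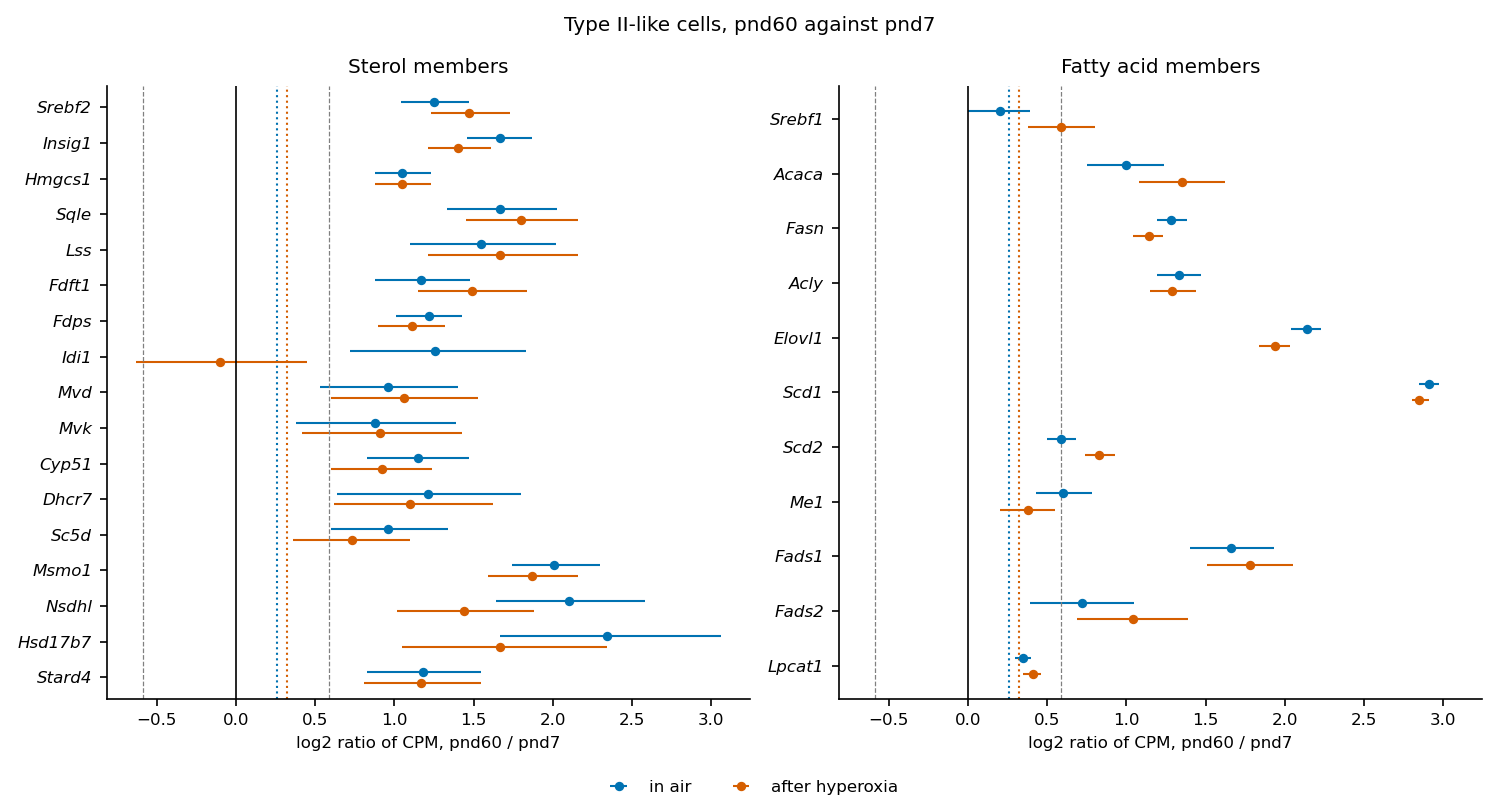
Log2 ratio of CPM at pnd60 to pnd7 in type II-like cells for each member with at least 100 counts, in air and after hyperoxia, with 95% intervals for counting error. All but Idi1 after hyperoxia (-0.10) lie above 0, and Scd1 lies highest at 2.91 and 2.85.

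The same held cell by cell. The median type II-like cell had 6.86 and 7.45 sterol counts per 10000 counts at pnd7 (10th to 90th percentile 2.23 to 17.5 and 1.94 to 18.8) and 17.7 and 18.7 at pnd60 (6.17 to 40.8 and 5.92 to 41.8). For fatty acid members the medians were 53.2, 53.0, 135 and 152. Only 0 to 1 cells in a library had no fatty acid count, and 2 to 14 had no sterol count. Type II-like cells of the 2 ages differed in depth, with medians of 14515 and 16922 counts at pnd7 and 6451 and 6342 at pnd60. When each cell was thinned to 1000 counts, the log2 ratio of the summed level was 1.16 for sterol and 1.43 for fatty acid members in air, compared with 1.36 and 1.57 in full. With the unnamed cycling cluster added to the class it was 1.44 and 1.69.

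Other genes of the same pathways followed in smaller shares, to be read against the 26.9% of all genes called higher in air and 33.3% after hyperoxia. Of 12 other sterol pathway genes with enough counts, 7 were called higher at pnd60 in air and 8 after hyperoxia, among them Pmvk, phosphomevalonate kinase (38.4 and 129 CPM in air). Of 7 other fatty acid pathway genes, 5 were called higher in each exposure, including Acsl4, an acyl-CoA synthetase that prefers arachidonate (441 and 969 CPM in air), and Elovl5 (78.7 and 164). Phospholipid and glycerolipid genes were called higher in 9 of 16 and 11 of 17, with Chka, choline kinase (273 and 774 CPM), Lpin2 (142 and 404) and Pcyt2 (43.1 and 116) ahead in air. Genes of sterol export, storage and the LXR receptors were called higher in 2 of 8 and 4 of 8, a share near that of all genes in air. None of these lists had a member called lower.

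After hyperoxia the members differed little from air in type II-like cells. At pnd7, 0 of 12 sterol and 0 of 11 fatty acid members with enough counts were called in either direction, compared with 1.72% of 5524 genes called higher and 2.57% called lower. The sterol sum was 826 CPM in air and 910 after hyperoxia (log2 ratio 0.14, 0.05 to 0.23), and the fatty acid sum 5431 and 5677 (0.06, 0.03 to 0.10). Neither direction held throughout: the sterol ratio was -0.18 in cells thinned to 1000 counts, and the fatty acid ratio -0.01 with the cycling cluster added. The largest shifts in fatty acid members were in Elovl1 (431 and 533 CPM, log2 ratio 0.31), Scd1 (1060 and 1292, 0.29) and Srebf1 (155 and 129, -0.27). Among sterol members Nsdhl was at 18.6 and 27.7 CPM (0.58, 0.00 to 1.16), Srebf2 at 98.5 and 77.9 (-0.34, -0.63 to -0.05) and Insig1 at 101 and 123 (0.29, 0.03 to 0.54).

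At pnd60, after recovery in room air, 1 of 17 sterol members was called. Idi1, which turns isopentenyl into dimethylallyl diphosphate, was lower after hyperoxia (37.0 and 22.4 CPM, from 107 and 73 counts, log2 ratio -0.73, -1.18 to -0.28), compared with 0.750% of 7204 genes called lower. No fatty acid member was called. Scd1 stood at 7981 CPM in air and 9344 after hyperoxia (0.23, 0.20 to 0.25), Dhcr7 at 32.9 and 46.2 (0.49, 0.11 to 0.88), Sqle at 110 and 131 (0.26, 0.05 to 0.47) and Fasn at 1230 and 1304 (0.08, 0.02 to 0.15). Scd1 and Elovl1 thus lay slightly higher after hyperoxia at both ages. Idi1 lay the other way at pnd7, at 15.4 and 23.9 CPM. These levels came from 39 and 50 counts, under the minimum of 100, and their intervals overlapped (11 to 21.1 and 17.7 to 31.5).

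**Figure D4:**
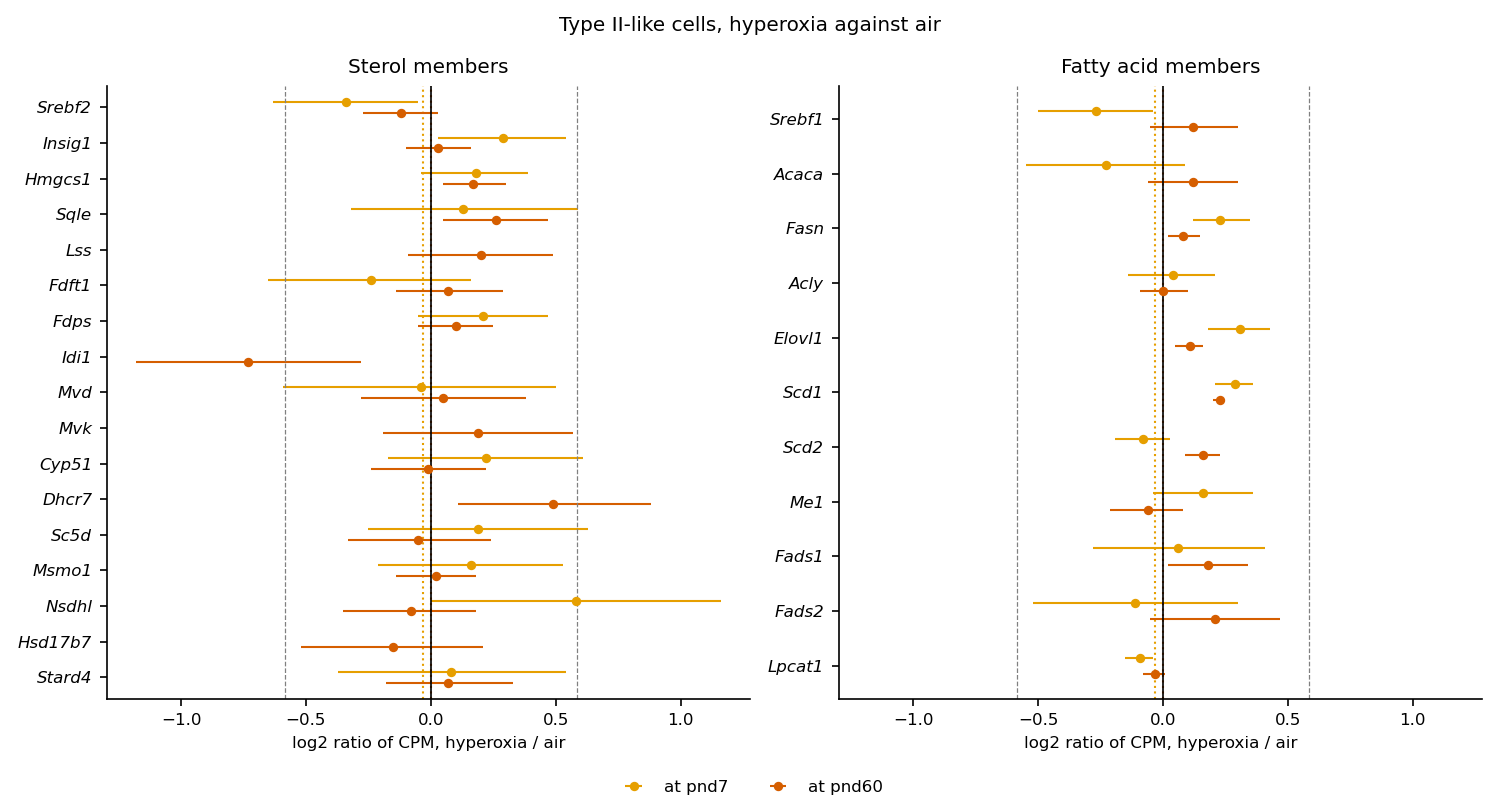
Log2 ratio of CPM after hyperoxia to air in type II-like cells for each member with at least 100 counts, at pnd7 and at pnd60, with 95% intervals for counting error. Most ratios lie close to 0, and Idi1 at pnd60 (-0.73) is the only one past 1.5-fold.

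Alveolar macrophages take up and break down surfactant lipid, and so meet the sterol that type II cells secrete. The alveolar macrophage-like class held 82 and 56 cells at pnd7, 409 in the sorted library, and 186 and 193 at pnd60, with all 10 of its markers detected in each library. Its sterol sum was 551, 566, 649, 670 and 571 CPM in that order, and its fatty acid sum 465, 476, 331, 929 and 748. Hence the sterol sum varied little while the fatty acid sum was higher at pnd60, before type II RNA carried by these cells was taken off. In air, 4 of 7 fatty acid members with enough counts were called higher at pnd60 and 1 of 7 sterol members, compared with 15.9% of all genes. After hyperoxia, 2 of 5 and 0 of 6 were called higher, compared with 16.5%.

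Srebf1 stood at 37.6 and 32.8 CPM at pnd7 and 84.0 and 92.6 at pnd60 (log2 ratios 1.16 and 1.5). Mvd, which makes isopentenyl diphosphate, stood at 45.2 and 53.2 against 80.0 and 76.3 CPM (0.82 and 0.52). Scd1 stood at 3.41 and 3.40 CPM at pnd7, from 4 and 3 counts, and at 239 and 130 CPM at pnd60. Fasn was at 29.0 and 58.7 CPM in air (1.02), and Lpcat1 at 17.1 and 62.0 (1.86). Type II RNA moved with these values: Sftpc stood at 192 and 207 CPM in macrophage-like cells at pnd7 and at 2381 and 1205 at pnd60, and the 10 type II markers summed to 294 and 302 against 3334 and 1643 CPM. If all of this Sftpc came with type II RNA of the same library, that RNA would bring 136 CPM of Scd1 in air at pnd60, or 56.9% of what was measured. With it taken off, the log2 ratio of the sum in air was 0.53 in place of 1.0. Of 5 fatty acid members 2 stayed past 1.5-fold, with Srebf1 at 1.13 and Scd1 at 5.35. The Scd1 ratio set 104 CPM at pnd60 against 2.56 CPM at pnd7, which is the floor of 3 counts and not a measured level. Fasn and Lpcat1 then no longer had enough counts. After hyperoxia, with type II RNA taken off, the fatty acid sum was 473 CPM at pnd7 and 598 at pnd60 (log2 ratio 0.34). Of 4 members with enough counts, 1 was called higher (Srebf1, 1.48). Another 1 was called lower: Scd2, at 139 CPM at pnd7 and 91.4 at pnd60 (-0.61). When cells marked as doublets were left out, the median fatty acid ratio in air went from 1.02 to 0.04. Such cells were 3.14% of the air pnd60 library but 0.0433% of the air pnd7 library, so almost only the pnd60 side changed.

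Hyperoxia differences in macrophage-like cells were few. At pnd7, Scd2 was the single member called, at 74.3 CPM in air and 139 after hyperoxia (log2 ratio 0.91, 0.50 to 1.32), 1 of 3 fatty acid and 0 of 5 sterol members with enough counts, compared with 1.93% of all genes called higher. At pnd60, Fdps (46.0 and 23.8 CPM), Fasn (58.7 and 28.2) and Scd1 (239 and 130) were called lower, 1 of 7 sterol and 2 of 7 fatty acid members, compared with 1.94% of all genes. Sftpc was also lower there after hyperoxia, at 1205 against 2381 CPM. With the type II RNA taken off, Scd1 stood at 104 and 49.2 CPM (-1.09). It was the 1 member called among the 6 sterol and 5 fatty acid members that still had enough counts. Fdps and Fasn no longer had enough counts, so whether their differences stayed cannot be said. The log2 ratio of the fatty acid sum, -0.31, was 0.04 without cells marked as doublets.

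**Figure D5:**
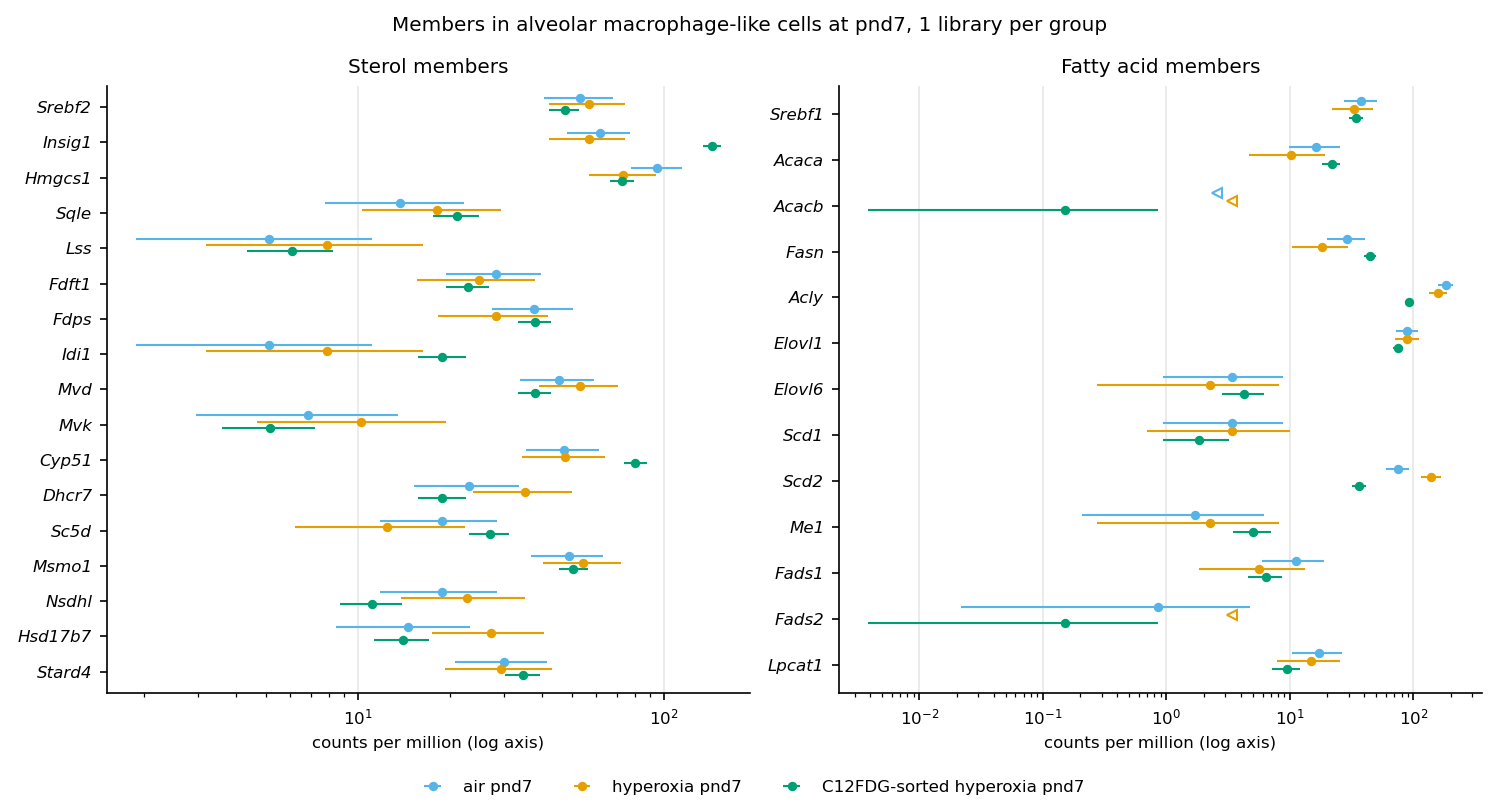
CPM of each member in alveolar macrophage-like cells of the pnd7 libraries (air, hyperoxia and C12FDG-sorted hyperoxia), on a log axis, with exact Poisson 95% intervals for counting error. In the sorted library Insig1 lies above the others, at 143 CPM against 61.5 in air and 56.6 after hyperoxia. Scd2 lies below them, at 36.5 CPM against 74.3 and 139.

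The C12FDG-sorted library consisted mostly of macrophage-like cells (409 of 493). Most of them (362) formed a cluster of their own, led by Hmox1, Slc7a11, Mt1 and Mmp12, to which the other libraries gave 8 cells, so that library, sort and cluster cannot be told apart. Compared with unsorted hyperoxia at pnd7, 4 of 14 sterol members and 2 of 6 fatty acid members were called higher, against 9.39% of 6621 genes. On the lower side, 2 sterol and 2 fatty acid members were called, against 32.2% of genes, and the median of all genes was -0.29 on the log2 scale. Insig1 stood at 143 CPM in sorted and 56.6 in unsorted cells (1.34, 0.93 to 1.78). The type I-like and type II-like classes of the sorted library held too few cells (9 and 8) to be compared, and their Insig1 levels are a description only. In the 9 type I-like cells it stood at 302 CPM (225 to 397), against 40.8 (27.5 to 58.2) in unsorted hyperoxia. In the 8 type II-like cells it was 187 CPM (126 to 268) against 123 (109 to 139), with overlapping intervals. Idi1 stood at 18.8 and 7.92 CPM (1.25), Sc5d at 26.9 and 12.4 (1.11), Cyp51 at 80.5 and 47.5 (0.76), Fasn at 44.7 and 18.1 (1.30, 0.58 to 2.13) and Acaca at 21.7 and 10.2 (1.09). The unsorted class held only 56 cells, and its levels of Idi1, Sc5d and Acaca rested on few counts.

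Scd2 showed the opposite, at 36.5 CPM in sorted and 139 in unsorted cells (log2 ratio -1.93, -2.25 to -1.61), and air at pnd7 lay between, at 74.3. Acly (91.9 and 158 CPM), Dhcr7 (18.8 and 35.1) and Hsd17b7 (14.0 and 27.2) were also called lower. With Seurat integration, which named 201 sorted cells alveolar macrophage-like in place of 409, the median ratio of the fatty acid members was -0.79 in place of -0.10. The regulators Srebf2 and Srebf1 differed little, at 47.3 and 56.6 and at 34.2 and 32.8 CPM. Among genes of sterol export and the LXR receptors, 3 of 12 were called lower, a share below the 32.2% of all genes: Abcg1, which exports sterol to lipoproteins, stood at 522 and 1672 CPM (-1.68), Abca1 at 52.3 and 147 (-1.49) and Mylip at 33.1 and 90.5 (-1.45). In the same list Lipa, lysosomal acid lipase, was called higher (867 and 565 CPM). Of 7 other fatty acid pathway genes 4 were called lower, with Elovl5 at 28.9 and 92.8 CPM. Of 11 other sterol pathway genes 1 was called higher and 3 lower, and of 16 phospholipid genes 4 lower, shares again below that of all genes.

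Fibroblast-like cells (130 and 117 at pnd7, 296 and 318 at pnd60, all 15 markers detected) had sterol sums of 289, 376, 746 and 652 CPM and fatty acid sums of 492, 490, 1235 and 1138 CPM. They formed separate clusters at pnd7 (led by Mfap4 and Slc27a6) and pnd60 (led by Inmt and Gpx3). In air, 4 of 4 sterol members with enough counts and 8 of 9 fatty acid members were called higher at pnd60, compared with 27.1% of genes. After hyperoxia, 3 of 5 and 7 of 9 were, compared with 28.4%. Insig1 stood at 27.7 and 34.8 CPM at pnd7 and 142 and 117 at pnd60 (log2 ratios 2.36 and 1.75). Srebf2 stood at 21.9 and 37.2 against 90.2 and 94.4 CPM (2.04 and 1.35), and Sc5d, a sterol desaturase, at 40.5 and 42.5 against 168 and 131 (2.05 and 1.63). Hmgcs1 was called in air only (0.66 and 0.19).

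Scd2 was the highest fatty acid member in fibroblast-like cells, at 162 and 156 CPM at pnd7 and 217 and 243 at pnd60. The polyunsaturated desaturases were among the higher members at pnd60, while at pnd7 they lay near Fasn (43.8 and 49 CPM). Fads1 stood at 42.5 and 51.3 CPM at pnd7 and 172 and 169 at pnd60 (2.02 and 1.72), and Fads2 at 47.0 and 36.6 against 143 and 128 (1.61 and 1.81). Srebf1 stood at 27.7 and 36.0 against 75.0 and 98.0 CPM (1.44 and 1.45). Scd1 stood at 1.29 and 2.36 against 173 and 160 CPM, but Sftpc in these cells was 140 and 182 CPM at pnd7 and 4605 and 2047 at pnd60, and type II RNA at that level would bring 263 CPM of Scd1 in air at pnd60, 152% of what was measured. With this RNA taken off, Insig1 (2.30), Srebf2 (1.96), Sc5d (2.08), Fads1 (2.01), Fads2 (1.63) and Srebf1 (1.36) stayed past 1.5-fold in air. Hmgcs1 (0.51) and Fasn (0.41) did not. In air at pnd60, however, this step would take off 152% of the Scd1 measured, which is more than was there. It can thus take off too much, and whether Hmgcs1 and Fasn stayed past 1.5-fold cannot be said. With the RNA taken off in full, the count was 3 of 7 fatty acid members in air and 4 of 7 after hyperoxia. For sterol members it was 3 of 4 in air and 3 of 5 after hyperoxia. There Fdps was called lower, at 40.1 CPM at pnd7 and 23.8 at pnd60 (-0.76). Without cells marked as doublets, which lay almost only in the pnd60 library, the median fatty acid ratio was 0.73 in air, in place of 1.44.

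Hyperoxia differences in fibroblast-like cells were again single genes. At pnd7, Fdps stood at 23.2 CPM in air and 40.1 after hyperoxia (log2 ratio 0.79, 0.19 to 1.42), 1 of 4 sterol and 0 of 7 fatty acid members called higher, compared with 1.79% of genes. At pnd60, Lpcat1 stood at 118 and 68.2 CPM (-0.79, -1.18 to -0.42), 1 of 9 fatty acid and 0 of 5 sterol members called lower, compared with 2.46% of genes. Sftpc, 4605 CPM in air and 2047 after hyperoxia, moved the same way. After type II RNA was taken off, 0 of 7 fatty acid members with enough counts were called, and Lpcat1 no longer had enough counts. In air at pnd60 this step can take off too much, since it exceeds the Scd1 measured.

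The other members were highest in another class, and the examples here are a description of level only. Scd2 was highest in type I-like cells, the thin cells of gas exchange, at 689 and 878 CPM at pnd7 and 2795 (2589 to 3013) and 2620 (2441 to 2809) at pnd60, when type II-like cells held 957 and 1070. In air at pnd7 its interval (639 to 741) overlapped that of type II-like cells (605 to 667). The type I-like class there is uncertain: it held 209 cells, of which Seurat integration would name 34 in that library, and it also carried 855 CPM of Lpcat1. Scd1, highest in type II-like cells, was also counted in B-like cells, at 348 and 256 CPM at pnd7 and 739 and 756 at pnd60, of which type II RNA would bring 2.60% in air at pnd60. Sqle was highest in ciliated-like cells at pnd60, at 155 (114 to 206) and 150 (114 to 194) CPM from 35 and 32 cells, with intervals that overlapped those of type II-like cells (97.9 to 122 and 119 to 144). Stard4 was highest in endothelial-like cells in each unsorted library, at 139, 146, 112 and 128 CPM, against 35.6 to 85.1 in type II-like cells, with an interval that overlapped that of pericyte-like cells at pnd60. Srebf2 was highest in dendritic-like cells at pnd60, at 312 and 260 CPM, though its interval after hyperoxia (218 to 308) overlapped that of type II-like cells (201 to 233). Elovl6 was highest in NK-like cells at pnd60, at 66.0 and 44.9 CPM from 25 and 18 counts, with intervals (42.7 to 97.4 and 26.6 to 70.9) that overlapped those of dendritic-like cells (20.2 to 55.4 and 10.6 to 37.9).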

How the data were processed

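Whole-lung cells of 5 mouse groups, 1 library each, were measured on the 10x Chromium platform. The authors deposited gene by cell tables of raw UMI counts made with Cell Ranger on mm10, per the labels, and processed them further with Seurat 3.2.1. Members and gene lists were chosen with earlier results of these data known.

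The study's limits on cells were used (over 700 and below 8000 genes, mitochondrial share below 5%). Here and in the wider filter the mitochondrial share took in only genes with symbols that begin with mt-R. Other mitochondrial transcripts were left out of it. Counts were log-normalised and clustered with Scanpy 1.11.5 (3000 variable genes, 50 components, 20 neighbours, leidenalg 0.10.2 at resolution 2), without the members and 4 related lists. The study integrated its libraries with Seurat. Here the main classes were made without integration, and integration (Seurat 5.3.0) was an alternative. It put 40 of the 493 sorted cells in a ciliated-like class. It named 414 and 222 pnd7 cells (air and hyperoxia) type II-like in place of 171 and 130. In air at pnd7 it named 34 cells type I-like in place of 209. Cluster names came from marker lists, with the naming thresholds set after clusters were seen, so classes are rebuilt and need not match the authors' cell types. No doublets were removed beyond the filter on genes. Scrublet marked 3.14% and 3.28% of the pnd60 cells but 0.0433% to 0.406% of the pnd7 cells, where it cannot be said to have worked.

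Counts were summed per class and library. Levels are CPM with exact Poisson 95% intervals; log2 ratios have exact binomial intervals; a group at 0 counts stands at a floor of 3 counts. UMI intervals cover counting error only. With 1 library per group no test was run. A list is given by its members called (at least 1.5-fold, at least 100 counts) and its median over members with enough counts. The bounds beside such a median are the median of its members' lower bounds and the median of their upper bounds. They are not an interval of the median itself. In each comparison the members past 1.5-fold were named, with Srebf1, Srebf2, Insig1, Hmgcs1, Sqle, Fasn, Scd1, Scd2 and Lpcat1 where counted, and at most the 3 largest ratios of each other list. The intervals were tested on simulated counts, with coverage of 93.5% to 98% for changed genes across the comparisons. This bears on counting error only, and spread between mice or libraries was not tested. Promoters are from RefSeq. Values of some genes of the wider lists are not reported here.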

Additional observations from a re-analysis of the deposited data

How the results depend on the processing

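With 1 library per group no replicate could be left out. No paired analysis was possible because each group had 1 library and no result came from a test. In all, 356 medians were recomputed under 9 planned and 5 added alternatives (the added ones chosen after seeing the data). Of these, 318 stayed within the bounds given with the reported median, which are medians of its members' bounds, and 38 fell outside them. The ratios of summed levels were less steady. With Seurat integration 17 of them moved, 1 reversed and 16 stayed. When cells were thinned to 1000 counts 20 moved, 1 reversed and 13 stayed. With a count minimum of 50 none moved. The sums that reversed are named below, and those that only moved are not. All values here are log2 ratios. Thinning to 1000 counts gave no value for 18 of the 34 medians (10 in macrophage-like, 6 in fibroblast-like and 2 in type II-like cells). For type II-like against other cells, thinning gave fatty acid medians of 2.32, 2.39, 3.23 and 3.28 (air pnd7, hyperoxia pnd7, air pnd60, hyperoxia pnd60) and a sterol median of 2.82 after hyperoxia at pnd60. Relative to the median of all genes, the sterol medians were 1.45, 1.21, 2.82 and 2.80 and the fatty acid medians 2.31, 2.16, 3.36 and 3.13. With the mean CPM per cell they were 2.48 (sterol, air pnd60), 3.14 and 2.84 (fatty acid, air and hyperoxia pnd60), and in air at pnd60 the fatty acid median was 2.59 with the wider filter (500 to 8000 genes, under 10% mitochondrial counts) and 2.58 with a count minimum of 50. For pnd60 against pnd7 in type II-like cells, medians relative to all genes were 0.74 (fatty acid, air), 0.85 (sterol, hyperoxia) and 0.81 (fatty acid, hyperoxia). For hyperoxia against air at pnd7 in type II-like cells, the sterol sum turned to -0.18 when thinned, and the fatty acid sum to 0.00 with each cell classed by its own markers and to -0.01 with the cycling cluster added.

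In macrophage-like cells, the pnd7 sterol median for hyperoxia was -0.47 without the cycling cluster (1 gene left). Without cells marked as doublets, the pnd60 fatty acid median for hyperoxia was 0.22 and the sum turned to 0.04, and the fatty acid median with age in air was 0.04. That median was 0.11 less type II RNA. After hyperoxia it was 0.99 with the wider filter. For sorted against unsorted cells, the fatty acid median was -0.79 with Seurat integration, which gave that class 201 sorted cells in place of 409. In fibroblast-like cells, the fatty acid sum for hyperoxia at pnd60 turned to 0.11 without doublets, with Seurat integration and less type II RNA, to 0.07 with the mean CPM per cell and to 0.16 with each cell classed by its own markers. Its median was 0.18 with Seurat integration and 0.23 less type II RNA, and the sterol median was -0.60 when thinned. The fatty acid median with age was 0.73 without doublets, 0.71 with Seurat integration and 0.41 less type II RNA in air, and 0.79, 0.70 and 0.82 after hyperoxia, where it was 0.94 with each cell classed by its own markers. The sterol median in air was 1.56 with a count minimum of 50. In fibroblast-like cells in air at pnd60, the step less type II RNA can take off too much, since it exceeds the Scd1 measured. The cause of these shifts was not tested. Depth limits the macrophage and fibroblast comparisons, in which 3 to 7 and 4 to 9 members per set had enough counts, apart from the sorted library.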
